A study of Mus musculus with 24 samples.

Results

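The DNA replication genes described here are 39 genes whose products copy the genome or start and supply that copying. They were taken by symbol from the 25239 rows of the deposited table, where all 39 were found, and all 39 were tested, since each averaged 10 or more normalised counts across the 24 libraries. RNA was sequenced from tracheal epithelial cells of mice (FVB/NJ, wild type, 7 to 8 weeks old), grown on inserts with air above them for 10 to 14 days before exposure. The 4 groups, of 6 inserts each, were female smoke, female air, male smoke and male air. The smoke groups received cigarette smoke for 10 days, each exposure being 2 cigarettes burnt over about 8 minutes, and the air groups received air. Donors are not named in the labels: the inserts could be technical replicates, p-values measure only the spread between inserts, and any sex difference includes any difference between the cell preparations.

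Before a cell divides, origins of replication are licensed: the origin recognition complex, Cdc6 and Cdt1 load the Mcm2 to Mcm7 ring, the core of the replicative helicase. At the start of S phase Cdc45 and the GINS complex join the ring and switch it on, and DNA polymerases then extend primers behind the fork, held on the template by a sliding clamp. Many of these genes are transcribed late in G1 under E2F factors, and basal cells are the main dividing cells of the airway epithelium. In bulk RNA, more cells in S phase and more RNA per cell cannot be told apart.

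Between 16038813 and 24485024 reads per library fell on genes, for the 23 libraries with recoverable whole reads. Xist was at 3665 normalised counts or above in every female library and at 10.6 or below in every male library, as labelled. The basal keratin Krt5 averaged 165813 in female smoke, 78590.1 in female air, 74652 in male smoke and 46066 in male air. In female smoke insert 4 and female air insert 1, shorter genes were higher (Spearman correlation across genes of the deviation with exon length of -0.426 and -0.661). Counts over the members are therefore also given without them, as are those over each pathway list in at least 1 sex.

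The promoters of members that moved most are shown because they carry, or lack, the E2F letters of the family. RefSeq windows on GRCm38.p6, the 250 bases before each annotated start, were matched for 31 of the 39 members, 36 windows in all, and none for Mcm4, Gins1, Gins2, Gins4, Prim2, Pole, Rfc2 and Ccne2. They were searched on both strands, overlaps allowed, for the E2F-type letters TTTCCCGC, TTTCGCGC, TTTGCCGC and TTTGGCGC. These letters were in 9 of the 36 windows (25%), against 611 of 32851 windows of all genes (1.86%). CCAAT, the letters of NF-Y, was in 21 of the 36 (58.3%), against 33.8% of all windows. TTTGAA, found in promoters of mitotic genes, was in 4 of the 36 (11.1%), against 16% of all windows and 8 of the 18 windows of the G2 and mitosis genes described below (44.4%).

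Among windows that hold no annotated exon before the start, the pair with E2F letters and the pair without them that had the largest female smoke response are printed. Each is the 250 bases before the start, 5′ to 3′ on the gene's strand, with E2F letters in capitals: chr8:75109259-75109508 (plus strand), chr1:128359706-128359955 (minus strand), chr2:5012792-5013041 (minus strand) and chr12:24708004-24708253 (plus strand).
Mcm5: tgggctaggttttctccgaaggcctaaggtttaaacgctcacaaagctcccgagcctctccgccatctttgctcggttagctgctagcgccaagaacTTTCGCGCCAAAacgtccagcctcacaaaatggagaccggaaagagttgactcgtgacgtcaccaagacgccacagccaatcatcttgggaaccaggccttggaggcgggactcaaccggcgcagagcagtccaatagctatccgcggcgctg
Mcm6: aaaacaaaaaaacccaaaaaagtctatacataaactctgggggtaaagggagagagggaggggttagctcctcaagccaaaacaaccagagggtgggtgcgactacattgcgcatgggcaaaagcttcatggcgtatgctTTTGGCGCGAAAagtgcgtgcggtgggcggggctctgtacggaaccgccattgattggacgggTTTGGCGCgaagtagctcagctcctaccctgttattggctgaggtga
Mcm10: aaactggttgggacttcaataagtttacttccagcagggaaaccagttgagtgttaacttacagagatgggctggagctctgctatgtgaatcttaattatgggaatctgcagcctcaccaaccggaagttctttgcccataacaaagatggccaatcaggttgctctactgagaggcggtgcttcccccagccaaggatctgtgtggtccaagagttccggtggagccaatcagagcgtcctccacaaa
Rrm2: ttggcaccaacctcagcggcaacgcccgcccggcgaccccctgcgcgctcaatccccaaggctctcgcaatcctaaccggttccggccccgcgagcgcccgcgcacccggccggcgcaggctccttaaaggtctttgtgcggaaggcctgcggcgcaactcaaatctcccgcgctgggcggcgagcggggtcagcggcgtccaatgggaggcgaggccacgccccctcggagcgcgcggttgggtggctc

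In the Mcm5 window a match and a second one read on the other strand overlap, starting 153 and 149 bases before the gene. The Mcm6 window holds such a pair at 110 and 106 bases and a further match at 47 bases. Orc1, Cdc6, Gins3, Mcm7, Pola1, Rfc3 and Uhrf1 held 1 match each. The 9 genes with a match had a median log2 fold change of smoke over air of 1.47 in female and 0.66 in male cells, and the 22 without had 1.02 and 0.54, given as a description. A match is a run of letters, and no match in Mcm10 or Rrm2 says only that these letters are not in the window.

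The first comparison asks how female cells stood after smoke. In female smoke 34 of the 39 members were called higher than in female air and 0 lower, by limma on log2(normalised count + 1) with a Benjamini-Hochberg adjusted p under 0.05, where 15.5% of the 13549 genes tested were called higher and 19.3% lower. The median fold change of the members was 2.04, a log2 fold change of 1.03, against -0.003 over all genes tested. The 6 smoke inserts lay above all 6 air inserts for 10 members, Cdt1, Mcm3, Mcm5, Mcm6, Mcm10, Pola1, Prim2, Pole, Rrm2 and Uhrf1, as they did for 6.73% of all genes. The members not called were Orc6, Gins1, Gins4, Rfc2 and Ccne2. The authors' deposited table for female smoke called 31 members, each higher once its sign is turned to smoke over air. All 31 were among the 34 called here, and Gins3, Rfc3 and Lig1 were not called there. Rfc2 had a negative sign in that table (-0.081). The share of all genes called in it is not given here.

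**Figure D1:**
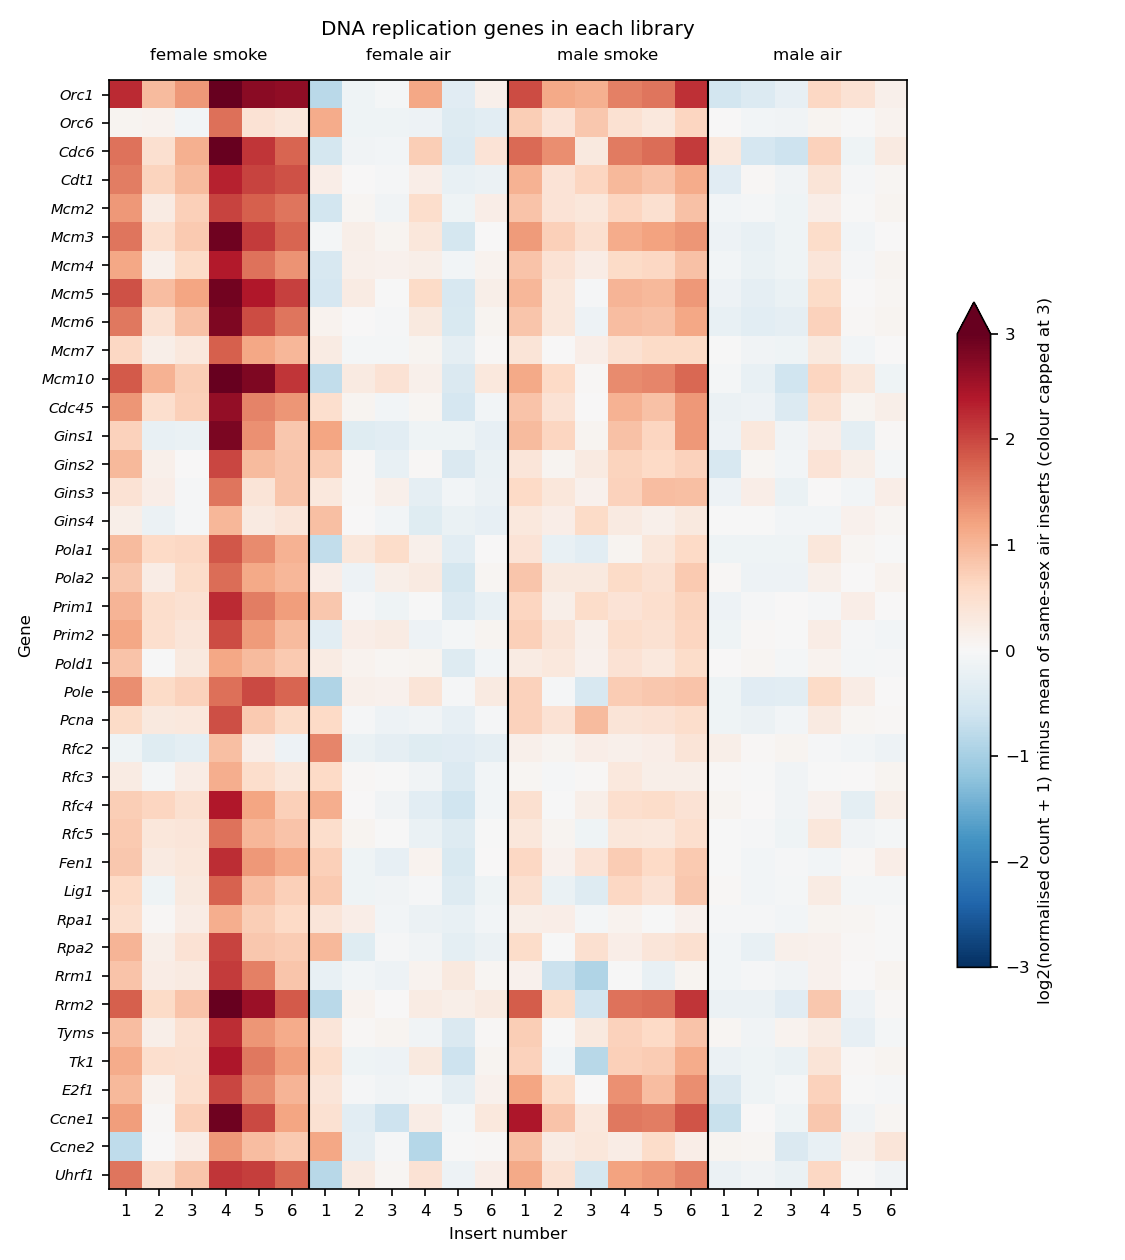
Each cell is the log2(normalised count + 1) of a member (rows, by role) in an insert (columns, by group) minus the mean of the 6 air inserts of the same sex, with colour capped at 3. Female smoke insert 4 was the highest of its group for 38 of 39 members, and inserts 2 and 3 are the palest smoke columns in both sexes.

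Origin licensing held the largest female responses, with 9 of 10 members called higher and a median log2 fold change of 1.55. Orc1, the largest subunit of the origin recognition complex, lies at chr4:108579454-108614831 on mm10. Its lowest, median and highest normalised counts were 49.0, 140.2 and 363 in female smoke, against 13.7, 23.2 and 56.7 in female air. Only female air insert 4 reached the smoke range. Orc1 rose by 2.28 ± 0.39 on the log2 scale (SE, n = 6 per group, limma adjusted p = 0.000188), a 4.85-fold change.

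Mcm5 (chr8:75109509-75128439), a subunit of the helicase ring, had a lowest, median and highest normalised count of 649, 1354 and 2535 in female smoke, against 242, 361 and 509.9 in female air. The groups did not overlap. Mcm5 rose by 1.90 ± 0.28 (limma adjusted p = 5.22e-05), a 3.72-fold change. Cdt1, which loads the ring, rose by 1.56 ± 0.21 (limma adjusted p = 2.24e-05), with 305 to 943 counts in female smoke and 163 to 221 in female air. Cdc6, the ATPase that works with it, rose by 1.68 ± 0.36. The other ring subunits rose unequally, by 1.61 ± 0.28 for Mcm3, 1.55 ± 0.29 for Mcm6, 1.27 ± 0.22 for Mcm2, 1.21 ± 0.24 for Mcm4 and 0.84 ± 0.19 for Mcm7.

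Levels per kilobase of exon set the ring subunits side by side. Mcm7 averaged 682 ± 303 normalised counts per kb in female smoke and 355 ± 42.5 in female air (SD, n = 6), while the means of the other 5 subunits were 311 to 412 in female smoke and 93.8 to 155 in female air. The subunit with the highest level in air thus had the smallest fold change of the ring. Orc6, the smallest subunit of the recognition complex, was not called, with 192 to 640.1 counts in female smoke and 155 to 438 in female air and a log2 fold change of 0.42 ± 0.24 (limma adjusted p = 0.187). Its highest air value was that of female air insert 1, and the other 5 air inserts held 155 to 187.

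Among the helicase activators 4 of 6 members were called higher. Mcm10, which stabilises the active helicase, rose by 1.96 ± 0.36 (limma adjusted p = 0.000388), with 91.8 to 502 counts in female smoke against 31.9 to 73.7 in female air and no overlap. Cdc45 rose by 1.33 ± 0.28. Of the GINS subunits, Gins2 rose by 0.82 ± 0.26 and Gins3 by 0.57 ± 0.22 (limma adjusted p = 0.0449), a call lost under 23 of 44 alternatives. Gins1 stood at 0.88 ± 0.38 (limma adjusted p = 0.076) and Gins4 at 0.26 ± 0.18 (limma adjusted p = 0.282). Female air insert 1 held 111 counts of Gins1 and 729 of Gins4, and the other 5 air inserts at most 44.7 and 394.

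All 6 polymerase and primase members were called higher in female smoke, with a median log2 fold change of 1.06. Pola1, the catalytic subunit of polymerase alpha, which extends the RNA primer, lies at chrX:93304766-93632155. It had a lowest, median and highest count of 491, 645 and 1166 in female smoke, against 193, 339.7 and 474 in female air. The groups did not overlap, and Pola1 rose by 1.08 ± 0.22 (limma adjusted p = 0.000831). Pole, the leading-strand polymerase, rose by 1.34 ± 0.27. The primase subunits Prim1 and Prim2 rose by 1.17 ± 0.23 and 1.04 ± 0.19, Pola2 by 0.90 ± 0.18 and Pold1, the lagging-strand polymerase, by 0.67 ± 0.15.

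Of the clamp and its loader, 4 of 5 members were called higher. Pcna, the sliding clamp (chr2:132249286-132253180), had the highest level per kb of the members in every group, 2062 ± 1114 in female smoke and 1143 ± 274 in female air. Its lowest, median and highest counts were 1732, 2111 and 5411 in female smoke, against 1181, 1345 and 2128 in female air. Only female air insert 1 reached the smoke range, and Pcna rose by 0.75 ± 0.20 (limma adjusted p = 0.00628). The loader subunits Rfc4, Rfc5 and Rfc3 rose by 1.03 ± 0.27, 0.83 ± 0.18 and 0.40 ± 0.15, the last with a limma adjusted p of 0.0492 that was lost under 29 of 44 alternatives. Rfc2 stood at 0.03 ± 0.24 (limma adjusted p = 0.935), with 607 to 1442 counts in female smoke and 600.4 to 2131 in female air. The highest air value was again insert 1, and the other 5 air inserts held 600.4 to 674.

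The flap endonuclease Fen1 and the ligase Lig1, which finish Okazaki fragments, rose by 1.01 ± 0.24 and 0.70 ± 0.25. Rpa1 and Rpa2, which coat single-stranded DNA, rose by 0.53 ± 0.13 and 0.87 ± 0.24. All 4 nucleotide supply members were called higher. Rrm2 (chr12:24708254-24714146), the small subunit of ribonucleotide reductase, had a lowest, median and highest count of 435, 1025 and 3112 in female smoke, against 167, 321 and 350.5 in female air. The groups did not overlap, and Rrm2 rose by 1.84 ± 0.43 (limma adjusted p = 0.00232). Rrm1 (chr7:102441695-102469771), the large subunit, had 1991, 3059 and 7331 in female smoke, against 1451, 1690.4 and 2085 in female air. Only air insert 5 reached the smoke range, and Rrm1 rose by 0.97 ± 0.24 (limma adjusted p = 0.00353). The thymidine nucleotide enzymes Tk1 and Tyms rose by 1.23 ± 0.31 and 1.04 ± 0.24.

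Uhrf1, which keeps methylation on copied DNA, rose by 1.47 ± 0.32 with no overlap between the groups. Ccne1, a cyclin of the G1 to S step, rose by 1.35 ± 0.39 and the transcription factor E2f1 by 1.002 ± 0.270. Ccne2, the other cyclin E, was the lowest member per kb in every group and was not called (0.41 ± 0.31, limma adjusted p = 0.332). It shares 1734 exon bases with Ints8 on the opposite strand, whose mean was 791 in female smoke and 592 in female air, and since strandedness is not given in the sources used here their reads cannot be told apart. Gins2, Rfc4, Fen1, Lig1 and Tk1 share between 63 and 160 exon bases with a gene on the opposite strand.

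The female count moved with the inserts used. Inserts 1 to 3 alone gave 3 members called higher, Orc1, Cdt1 and Mcm5, where 2.83% of all genes were, with a member median of 0.46. Inserts 4 to 6 alone gave 39, where 22.1% of all genes were, with a median of 1.59. Without that pair of length-trend libraries, 36 members were called higher, where 21.9% of all genes were, with a median of 0.87.

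**Figure D2:**
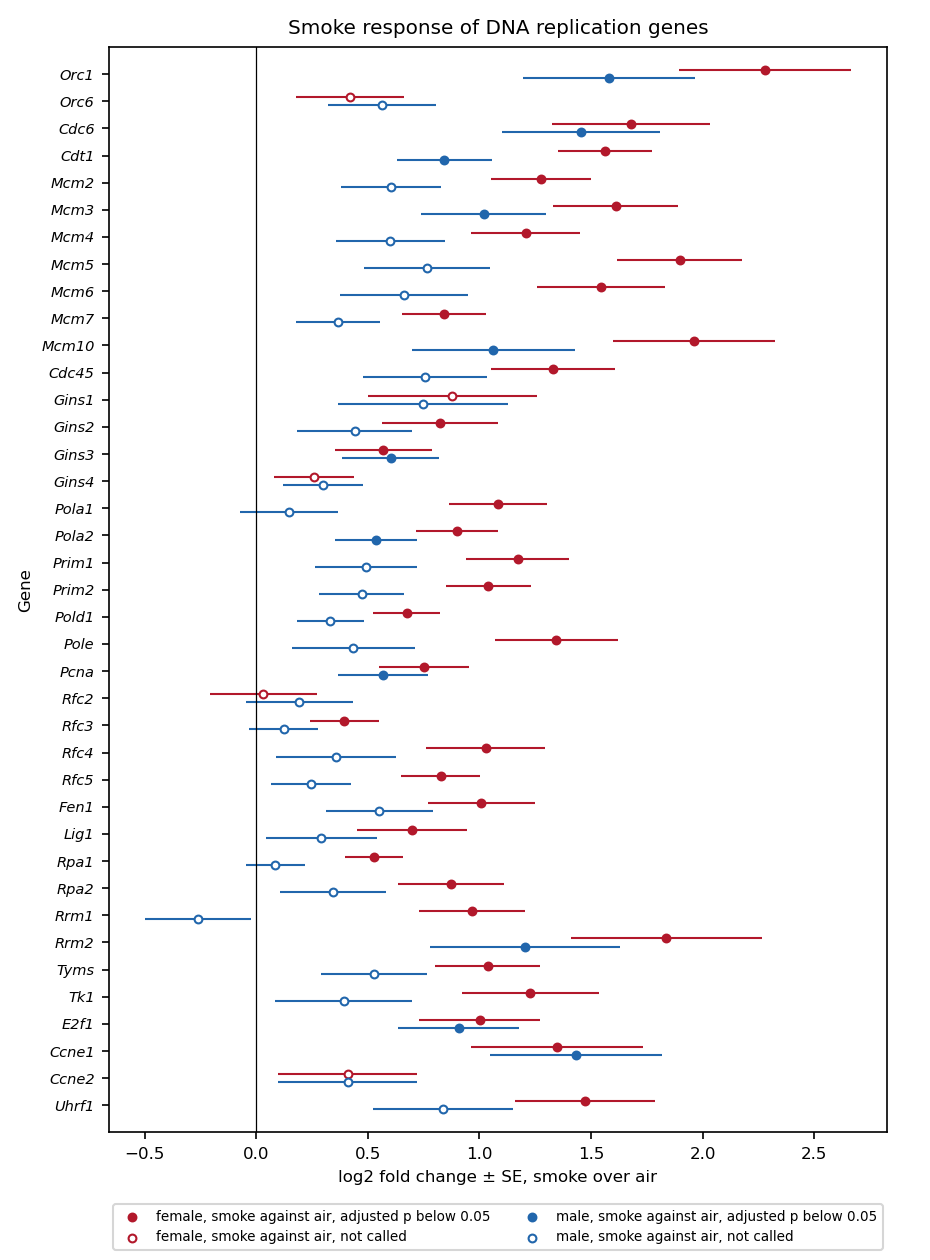
Points are the log2 fold change of smoke over air of each member in female and male cells, with whiskers of 1 SE from limma (n = 6 per group), filled where the adjusted p was below 0.05 and open otherwise. In female cells 34 points are filled and in male cells 11, and Rrm1 in male cells is the only point below 0.

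The second comparison asks the same of male cells. In male smoke 11 of the 39 members were called higher than in male air and 0 lower, where 9.76% of all genes were called higher and 12.2% lower. The median fold change was 1.45, a log2 fold change of 0.54, against -0.006 over all genes tested, and 38 of 39 members were above 0. The 11 were Orc1, Cdc6, Cdt1, Mcm3, Mcm10, Gins3, Pola2, Pcna, Rrm2, E2f1 and Ccne1. The count depended on the fit, being 30 with only the 12 male libraries, where 21.3% of all genes were called higher, and 29 without the pair of female libraries with a length trend, where 22.5% were. Leaving out female smoke insert 4 alone gave 22, where 12.6% of all genes were called higher, and leaving out male smoke insert 1 or 6 or male air insert 1, 2 or 3 gave 6, where 6.67% to 9.64% were. Leaving out male smoke insert 4 or 5 or male air insert 5 or 6 gave 7, where 7.78% to 9.71% were. The calls of Gins3, Pcna and Rrm2 were lost under 27, 22 and 20 of the 44 alternatives. The authors' deposited table called 30 members, each higher in smoke once its sign is turned to smoke over air, including all 11, where that table called 42.1% of genes.

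Orc1 again led, with a lowest, median and highest count of 59.1, 83.5 and 129.5 in male smoke, against 18.6, 26.9 and 42.7 in male air. The groups did not overlap, and Orc1 rose by 1.58 ± 0.39 (SE, n = 6 per group, limma adjusted p = 0.00545), a 2.99-fold change. Cdc6 had 50.8, 129.9 and 181 in male smoke, against 26.5, 44.1 and 67.5 in male air. Only male smoke insert 3 fell within the air range, and Cdc6 rose by 1.45 ± 0.36 (limma adjusted p = 0.00534). Ccne1 rose by 1.43 ± 0.39, Rrm2 by 1.20 ± 0.43, Mcm10 by 1.06 ± 0.36, Mcm3 by 1.02 ± 0.28 and E2f1 by 0.91 ± 0.27. Smaller rises were called for Cdt1 (0.84 ± 0.21), Gins3 (0.60 ± 0.22) and Pola2 (0.54 ± 0.18).

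The 6 male smoke inserts lay above all 6 male air inserts for 8 members, Orc1, Orc6, Cdt1, Mcm2, Gins4, Pola2, Pold1 and Pcna, as they did for 11.0% of all genes. Pcna had a lowest, median and highest count of 1741, 1878 and 2588 in male smoke, against 1191, 1319 and 1623 in male air, and rose by 0.57 ± 0.20 (limma adjusted p = 0.046). Orc6 had 272, 321 and 380.4 in male smoke, against 202, 218 and 233 in male air, and although its inserts did not overlap it was not called (0.56 ± 0.24, limma adjusted p = 0.0967). Mcm5 had 419, 846 and 1052 in male smoke, against 352, 406 and 634 in male air. Male smoke inserts 2 and 3 fell within the air range of Mcm5, which stood at 0.77 ± 0.28 (limma adjusted p = 0.0541).

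Other members had small differences in male cells. Pola1 had 207, 301 and 390.3 in male smoke, against 236, 247 and 327 in male air, and stood at 0.15 ± 0.22 (limma adjusted p = 0.679). Rpa1 stood at 0.09 ± 0.13 and Rfc3 at 0.12 ± 0.15. Rrm1 had 1641, 2841 and 3381 in male smoke, against 2855, 3070.2 and 3356 in male air. Inserts 2, 3 and 5 lay below all 6 air inserts and insert 1 above them. Rrm1 stood at -0.26 ± 0.24 (limma adjusted p = 0.462).

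**Figure D3:**
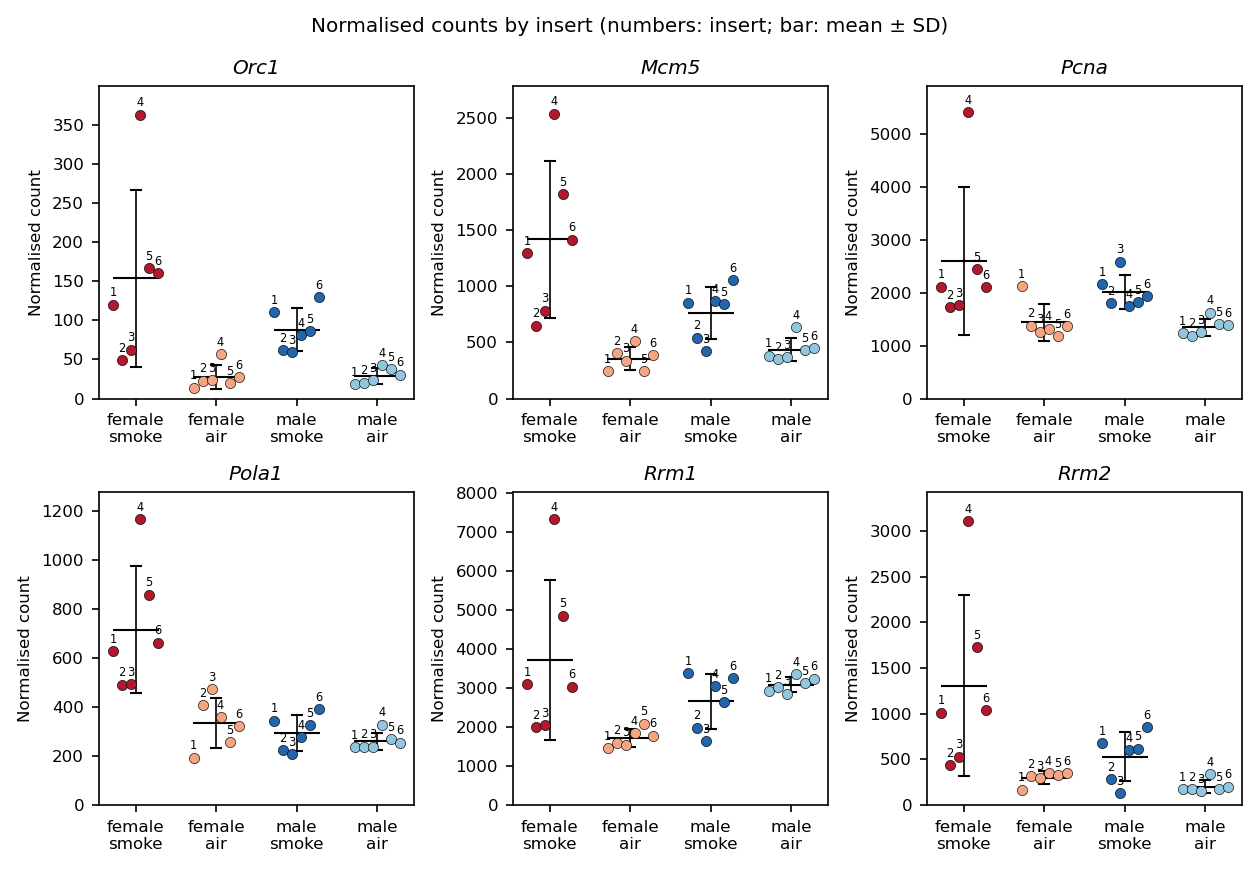
Normalised counts of 6 members in each insert (points) by group, with bars of the mean and SD of 6 inserts. Orc1 in male smoke, at 59.1 to 129.5, lies wholly above male air, at 18.6 to 42.7, while Pola1 lies apart from air in female smoke, at 491 to 1166 against 193 to 474, and overlaps it in male smoke, at 207 to 390.3 against 236 to 327.

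The difference between the sexes in the smoke response was tested as an interaction, the female response minus the male one. No member was called by limma, where 1.03% of all genes were, or by edgeR, which called 0.620% of all genes higher, and DESeq2, which called 1.87% higher, called Rrm1. 11 of the 39 members had an unadjusted limma p under 0.05, as did 13.2% of all genes. The difference was above 0 for 33 members, with a median of 0.53 against -0.003 over all genes tested. Rrm1 had the lowest p, with a difference of 1.23 ± 0.34 (limma adjusted p = 0.0754), followed by Pola1 at 0.94 ± 0.31 (limma adjusted p = 0.158) and Mcm5 at 1.13 ± 0.40 (limma adjusted p = 0.188). Inserts 4 to 6 alone gave 7 members called higher, where 1.85% of all genes were, and 18 when female smoke insert 4 was left out of them too, where 9.50% were. Leaving out female smoke insert 2 or insert 3 gave 1, Rrm1, where 0.790% and 0.679% of all genes were called higher. The size of the difference also moved with the inserts used. With inserts 1 to 3 alone it was above 0 for 20 members, with a median of 0.02. With inserts 4 to 6 alone it was above 0 for 39, with a median of 0.98.

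Between the sexes in air, 1 member was called higher in female cells and 2 lower, where 20.0% of all genes were called higher and 19.0% lower. Rrm1 averaged 1716 ± 232 in female air and 3087 ± 190.4 in male air (SD, n = 6), with no overlap (as for 16.7% of all genes lower in female air), a log2 difference of -0.85 ± 0.24 (limma adjusted p = 0.00646). Mcm2 averaged 442 ± 111 in female air and 654 ± 54.8 in male air (-0.60 ± 0.22, limma adjusted p = 0.0375). Ccne1 averaged 72.8 ± 19.7 in female air and 36.7 ± 13.4 in male air (0.99 ± 0.39, limma adjusted p = 0.045), and this call was lost under 22 of the 44 alternatives, TMM scaling among them, as that of Mcm2 was under 11. The authors' deposited table for air called 8 members, 4 in each direction, these 3 included, where it called 36.6% of genes.

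In smoke, 11 members were called higher in female cells and 0 lower, where 17.0% of all genes were called higher and 15.3% lower. They were Mcm5, Cdc45, Pola1, Pold1, Rfc4, Rfc5, Lig1, Rpa2, Rrm2, Tyms and Tk1. Tk1 had the largest difference among them, averaging 799 ± 449.8 in female smoke and 304 ± 123 in male smoke (1.36 ± 0.31, limma adjusted p = 0.00142). Pola1 averaged 716 ± 259 in female smoke and 294 ± 71.8 in male smoke, and its groups did not overlap (1.25 ± 0.22, limma adjusted p = 0.000105), as for 9.57% of all genes higher in female cells. The count was 3 with only the smoke groups in the fit, where 16.0% of all genes were called higher, and 2 without male smoke inserts 2 and 3, where 13.7% were. It was 3 without female smoke insert 4 and 5 without insert 5, where 18.7% and 16.1% of all genes were called higher. Leaving out female smoke insert 2 gave 20 and leaving out insert 3 gave 18, where 16.3% and 15.9% were. Leaving out male smoke insert 2 or insert 3 gave 4 each, where 15.6% and 15.4% were.

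The inserts of a group differed from each other in smoke and in air. In female smoke, inserts 1 to 3 averaged lower than inserts 4 to 6 for all 39 members, with a median log2 difference of -0.97 against 0.02 over all genes. Inserts 1 to 3 lay wholly below inserts 4 to 6 for 28 members, as for 9.09% of all genes. Without insert 4 the median was -0.71, against 0.001 over all genes, and the count 28. Leaving out an insert cannot lower that count, and the share of all genes without insert 4 is not given here. In male smoke 34 members averaged lower in inserts 1 to 3, with a median of -0.37, and 10 lay wholly below, as for 15.9% of all genes. These were Mcm6, Mcm7, Mcm10, Cdc45, Gins2, Gins3, Pole, Rfc3, Tk1 and Uhrf1.

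The labels give no batch, so these sets are insert numbers and no more. In female air 11 of the 39 members averaged lower in inserts 1 to 3, with a median of 0.16. There 6 lay wholly above and 2 wholly below in inserts 1 to 3, as for 18.0% and 16.9% of all genes. Without female air insert 1 the counts were 8 and 4, as for 28.2% and 22.4% of all genes, and the median was 0.07. In male air 36 members averaged lower in inserts 1 to 3, more than in male smoke, and 16 lay wholly below and 1 wholly above, as for 18.3% and 15.2% of all genes, with a median of -0.18.

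Within these sets, inserts 2 and 3 held most of the low values. In female smoke insert 2 was the lowest for 30 members and insert 3 for 8. Mcm5 had 1293, 649 and 783 counts in female smoke inserts 1, 2 and 3, and 2535, 1821 and 1414 in inserts 4, 5 and 6. In male smoke insert 6 was the highest for 25 members, insert 3 the lowest for 25 and insert 2 for 10. Mcm5 had 852, 540.3 and 419 counts in male smoke inserts 1, 2 and 3, and 864, 840.4 and 1052 in inserts 4, 5 and 6.

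In male smoke insert 3, 14 members stood above all 6 male air inserts and 7 stood below all 6, where 38.7% of all genes stood above and 39.8% below. The share of members above was near that of all genes and the share below was smaller. The 7 were Pola1, Pole, Lig1, Rrm1, Rrm2, Tk1 and Uhrf1. Rrm2 had 130.2 counts in insert 3 and 286 to 853 in the other 5 smoke inserts, against 154 to 337 in male air. Uhrf1 had 260.4 in insert 3 and 519 to 1059 in the other 5, against 327 to 580.4 in male air. Orc6, Gins4 and Pcna, at 380.4, 463 and 2588, were instead the highest of their group in this insert. Cdkn1a, an inhibitor of cyclin-dependent kinases chosen after its values were seen, stood at 20849 in insert 3 and 12152 to 15060.4 in the other 5.

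Genes of the next cell cycle steps were also compared by insert. The summed normalised counts of 22 G2 and mitosis genes were 2686 and 2366 in male smoke inserts 2 and 3 and 8327 to 12897 in the other 4, against 5867 to 8544 in male air. In inserts 2 and 3 all 22 genes lay below all 6 male air inserts, while 16 and 14 of the 39 replication members lay above them and 3 and 7 below. In insert 2, 33.7% of all genes lay above all 6 male air inserts and 35.5% below. In inserts 1, 4, 5 and 6, between 35 and 37 replication members and between 11 and 22 of the G2 and mitosis genes lay above all 6 male air inserts, where 30.2% to 38.0% of all genes did.

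**Figure D4:**
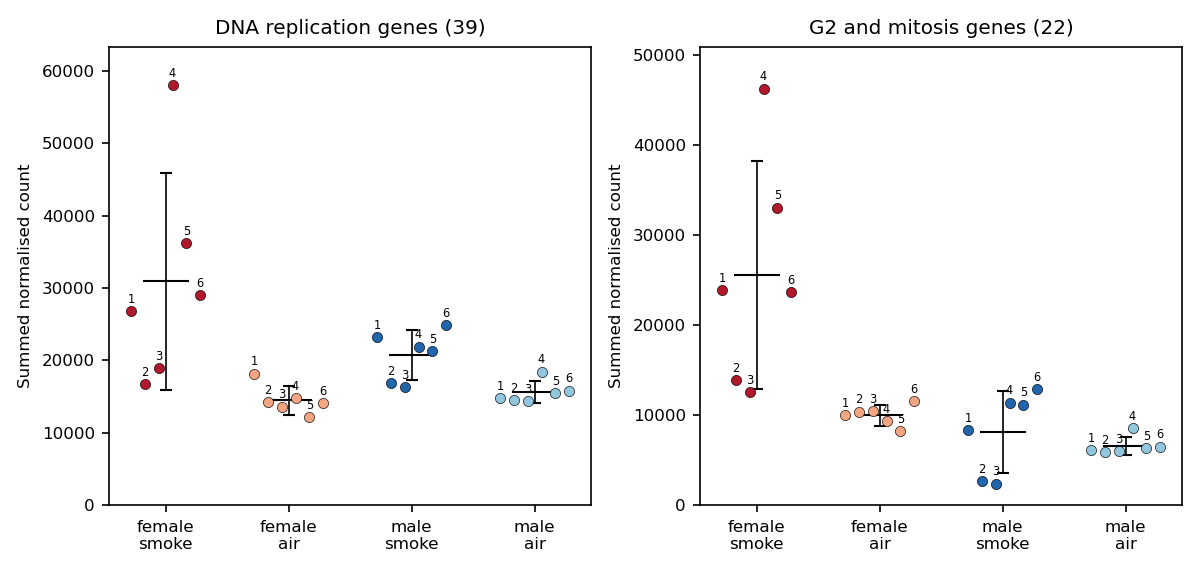
Summed normalised counts per insert (points) of the 39 members and of 22 G2 and mitosis genes, by group. For the members male smoke inserts 2 and 3 lie at 16845 and 16312, against 14334 to 18430 in male air, and for the G2 and mitosis genes at 2686 and 2366, against 5867 to 8544 in male air.

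Over the groups, 17 of 22 G2 and mitosis genes were called higher in female smoke, with a median log2 fold change of 1.30, and 0 in male smoke, with a median of 0.02. Of all genes, 15.5% were called higher in female smoke and 9.76% in male smoke. Without male smoke inserts 2 and 3, an alternative chosen after seeing the data, 6 were called higher in male smoke, with a median of 0.71, and 14 of the 39 members, with a median of 0.69, where 6.45% of all genes were. In female smoke the count was 22 of 22 in that fit, whose share of all genes called higher in female smoke is not given here. The groups share 1 estimate of the spread, so leaving out male libraries can change female calls. The female count was 13 without the pair of length-trend libraries (median 1.06), where 21.9% of all genes were called higher. It was 0 with inserts 1 to 3 alone (median 0.77), where 2.83% were. With inserts 4 to 6 alone it was 22 (median 1.76), where 22.1% were. The interaction was above 0 for 22 of the 22, with a median of 1.27, and 17 had an unadjusted limma p under 0.05. After adjustment limma called 0 of them, edgeR 0 and DESeq2 0. Between the sexes in smoke, 22 of the 22 were called higher in female cells, with a median log2 difference of 1.80, where 17.0% of all genes were. Without male smoke inserts 2 and 3 the count was 20, with a median of 1.06, where 13.7% of all genes were. The mitotic kinases Aurkb and Bub1 rose in female smoke by 1.59 ± 0.37 and 1.59 ± 0.39 and stood at 0.22 ± 0.37 and 0.34 ± 0.39 in male smoke (SE, n = 6 per group). Their list's summed level was 12515 to 46265 in female smoke and 8177 to 11525 in female air.

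The rest of the replication machinery is described by a list of 44 other genes. In female smoke 24 were called higher and 0 lower, with a median log2 fold change of 0.64, where 15.5% of all genes were called higher. In male smoke 11 were called higher and 1 lower, with a median of 0.30, where 9.76% of all genes were called higher. Without the pair of length-trend libraries 30 were called higher and 2 lower in female smoke (median 0.45), and 26 higher and 3 lower in male smoke. That fit called 21.9% of all genes higher in female smoke and 22.5% in male smoke. With only the 12 male libraries 24 were called higher and 3 lower, where 21.3% of all genes were called higher. For these alternative fits the shares of all genes called lower are not given here. Ticrr, which helps load Cdc45, rose by 1.99 ± 0.35 in female smoke and stood at 0.73 ± 0.35 in male smoke (limma adjusted p = 0.145). Recql4, a helicase of origin firing, rose by 1.81 ± 0.23 in female smoke and by 0.90 ± 0.23 in male smoke.

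For the next lists, the shares of all genes were as follows. In female smoke 15.5% were called higher and 19.3% lower, and in male smoke 9.76% higher and 12.2% lower. Of 29 G1 to S control genes, 16 were called higher and 0 lower in female smoke, and 6 higher and 4 lower in male smoke. Without the pair of length-trend libraries 16 were called higher and 4 lower in female smoke, and 12 higher and 5 lower in male smoke. There 21.9% of all genes were called higher in female smoke and 22.5% in male smoke. With only the libraries of 1 sex in the fit the counts were 10 higher and 0 lower in female smoke and 11 higher and 6 lower in male smoke. The male fit called 21.3% of all genes higher, and the share that the female fit called higher is not given here. Shares called lower are not given for these fits or for the fit without the length-trend pair. The share of all genes called higher in male smoke thus rose in these fits too. E2f8, a repressor of the E2F family, rose by 1.70 ± 0.42 in female smoke and stood at 0.66 ± 0.42 in male smoke. Ccna2, the S phase cyclin, rose by 1.53 ± 0.44 in female smoke and stood at 0.16 ± 0.44 in male smoke. Of 18 fork protection and checkpoint genes tested, 11 were called higher in female smoke and 3 in male smoke, and 0 lower in either. The male count was 8 without the pair of length-trend libraries and 9 with only the 12 male libraries, where 22.5% and 21.3% of all genes were called higher. The checkpoint kinase Chek1 rose by 1.74 ± 0.30 in female smoke and by 0.83 ± 0.30 in male smoke. The nuclease Exo1 rose by 1.72 ± 0.31 in female smoke and by 0.90 ± 0.31 in male smoke.

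Cell type markers were counted in the same comparisons. The counts here and for the marker lists below stand beside these shares of all genes tested. In female smoke 15.5% were called higher and 19.3% lower, and in male smoke 9.76% higher and 12.2% lower. Of 15 multiciliated cell markers, 14 were called lower and 0 higher in female smoke, with a median log2 fold change of -2.51, and 4 lower and 1 higher in male smoke. Foxj1, the regulator of motile cilia, averaged 2047 in female smoke and 5449 in female air, and 727 in male smoke and 1342 in male air. The summed level of that list was 13148 to 31537 in female smoke and 27163 to 55831 in female air, and 12904 to 18814 in male smoke and 14565 to 19591 in male air. Tubb4b averaged 11868 of a mean sum of 15577 in male smoke, and 9510 of 16946 in male air. In female smoke it averaged 11992 of 20226, and in female air 12581 of 39826. Tubb4b, named after its values were seen, was the marker called higher in male smoke. The sum thus says little of the other multiciliated markers in male cells. Of 12 basal cell markers, 2 were called higher and 1 lower in female smoke, and 3 higher and 2 lower in male smoke. In female smoke the share of basal markers called higher was near that of all genes. The median log2 fold change of the basal list was 0.32 in female smoke and -0.18 in male smoke. Krt5 rose by 1.06 in female smoke and by 0.65 in male smoke. Krt14 stood at 0.24 in female smoke (not called) and rose by 0.72 in male smoke. Pdpn was called lower in both sexes (-0.67 and -0.84), and Ngfr in male smoke (-1.04). Most of the summed basal level came from Krt5, Krt14 and Krt15. Krt15, Pdpn and Ngfr are named after their values were seen. The summed basal level was 269290 to 470118 in female smoke and 186254 to 290836 in female air, and 165126 to 293113 in male smoke and 202411 to 249840 in male air. Club and secretory markers had 0 called higher and 5 lower of 10 in female smoke, and 1 higher and 2 lower in male smoke.

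Markers of cells from outside the epithelium were at uneven levels. Of 8 leukocyte markers, 4 averaged 10 or more counts. Ptprc, which marks all leukocytes, did not, with at most 8.31 in any library. Of the 4, 1 was called higher and 2 lower in female smoke, and 2 higher and 0 lower in male smoke. Cd68 rose by 0.77 in female smoke and by 1.53 in male smoke. The lysozyme gene Lyz2 and the myeloid integrin gene Itgam are named after their values were seen. Lyz2 averaged 20565 in female smoke and 65401 in female air, with a called log2 fold change of -1.83, and 25843 in male smoke and 34098 in male air (-0.67, not called). Itgam averaged 2207 in female smoke and 1206 in female air (0.87, not called), and 203 in male smoke and 32.1 in male air, a rise of 2.61. Most of the summed leukocyte level was Lyz2, so the sum says little of the other leukocyte markers. That sum was 5180 to 41786 in female smoke and 33635 to 131020 in female air. In male cells it was 5779 to 44351 in smoke and 30324 to 40530 in air.

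Of 8 fibroblast markers, Dcn and Postn averaged 10 or more counts, and both were called lower in both sexes. Dcn, a matrix proteoglycan, had a log2 fold change of -4.52 in female smoke and -4.37 in male smoke, and Postn of -2.63 and -1.46. The collagen genes Col1a1 and Col1a2 did not pass 49.1 and 66.7 counts in any library. The summed fibroblast level was 22.8 to 159.5 in female smoke and 290.2 to 1519 in female air, and 30.9 to 97.0 in male smoke and 167 to 429.6 in male air. Of 6 endothelial markers only Vwf averaged 10 or more, with a log2 fold change of -2.32 in female smoke and -0.58 in male smoke (not called), and Cdh5 did not pass 0.923 in any library. The part of cell makeup in the replication results was not tested.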

How the data were processed

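RNA-seq libraries from 24 inserts, 6 per group, were analysed as deposited. Per the submitters' processing notes the tools included Trimmomatic 0.38.0, FastQC 0.11.9, DESeq2 and HTSeq, and the builds were mm10 and GRCm38; aligner and strandedness: not given in the sources used here. The authors deposited normalised counts (a signal, in which each library's gene counts share 1 size factor). In 23 libraries 100% of checked values were whole multiples of 1 step, within 0.01 reads, which gave back the whole reads and the depth. Male smoke insert 5, whose step lay near 1, was left out of the count tests. The authors' deposited tables hold log2 fold changes, a Wald score and p-values, per the file headers, coded air over smoke or male over female, and gene positions on mm10.

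Here, 13549 of 25239 genes, those averaging 10 or more, were kept and fitted on log2(normalised count + 1) with limma 3.58.1 in R 4.3.3, with 1 coefficient per group over all 24 libraries, a trend in empirical Bayes and Benjamini-Hochberg adjustment over all genes tested. edgeR 4.0.16 and DESeq2 1.42.0 on the recovered reads called 4678 and 5186 genes in female smoke against air. On simulated data for female smoke against air (13549 genes) limma recovered 93% of log2 changes of 1 and 100% of log2 changes of 2, with 5 false calls. The simulation gave all genes the same dispersion and held no length-trend library, unlike these data. It checks the code and does not give the recovery or the false calls in this comparison. Inserts 1 to 3 and 4 to 6 of a group were compared as values with no test. All 39 members may be named; of each pathway list, the pair of genes with the largest change among those called; of markers, the first pair of each list and the sex markers. Members and lists were chosen with earlier results of these data known. Alternatives were other scalings, pseudocounts, filters, weights, blocks, tests and left-out libraries.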

Additional observations from a re-analysis of the deposited data

Results flagged for a closer look

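In 21 of the 156 sets of 6 inserts (39 members in 4 groups), 1 insert stood apart from the others by Dixon's criterion at 95% on log2 values. Chance marks about 1 in 20 sets, and members of 1 library are not independent. The values printed are normalised counts. In female smoke insert 4, Orc6 (640.1), Pcna (5411) and Rfc4 (568) stood above the other 5 inserts. In female air insert 1, Orc6 (438), Gins1 (111), Gins4 (729), Prim1 (299.7), Pcna (2128), Rfc2 (2131), Rfc4 (229.7), Lig1 (1205) and Rpa2 (449) stood above the other 5, and Pole (68.5) and Rrm2 (167) below them. In male air insert 4, Mcm3 (593), Mcm7 (1349.8), Rfc5 (444), Lig1 (621), Rrm2 (337), E2f1 (128) and Uhrf1 (580.4) stood above the other 5. Female air insert 1 and female smoke insert 4 are the libraries in which shorter genes were higher. Whether that trend accounts for these values was not tested.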

How the results depend on the processing

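Counts are given for all genes called in female smoke against air, male smoke against air, the interaction, female against male in air and female against male in smoke (4713, 2979, 140, 5282 and 4364 in the fit reported), then for members called higher in the first 3 (34, 11 and 0) and between the sexes (1 higher and 2 lower in air and 11 higher and 0 lower in smoke). Array quality weights gave 7709, 6677, 2420, 9490 and 6601 genes, and 37, 35 and 7 members, with 7 higher and 7 lower in air and 11 higher and 1 lower in smoke. Inserts 1 to 3 alone gave 656, 2507, 40, 2859 and 3082 genes, and 3, 5 and 0 members, with 0 higher and 1 lower in air and 2 higher and 0 lower in smoke. Inserts 4 to 6 alone gave 6243, 931, 637, 4558 and 4483 genes, and 39, 6 and 7 members, with 0 higher and 4 lower in air and 26 higher and 0 lower in smoke. Leaving out female air insert 1 and female smoke insert 4 gave 6188, 6398, 840, 7557 and 6967 genes, and 36, 29 and 1 members, with 4 higher and 5 lower in air and 8 higher and 1 lower in smoke. Inserts 1 to 3 without female air insert 1 gave 1409, 6080, 369, 4191 and 6364 genes, and 7, 12 and 0 members, with 1 higher and 1 lower in air and 4 higher and 1 lower in smoke. Inserts 4 to 6 without female smoke insert 4 gave 7116, 3523, 2696, 7852 and 5794 genes, and 39, 31 and 18 members, with 2 higher and 8 lower in air and 23 higher and 0 lower in smoke. Leaving out male smoke inserts 2 and 3 gave 4803, 1869, 63, 5315 and 3401 genes, and 33, 14 and 0 members, with 1 higher and 2 lower in air and 2 higher and 0 lower in smoke. The last 3 of these settings were chosen after seeing the data. With only the groups compared, 2857 and 6148 genes were called in female and male smoke, 30 members in male smoke, and between the sexes 4 higher in air and 3 in smoke. Members higher in female air numbered 0 under TMM, total and quantile scaling, a pseudocount of 5 and no filter; total and quantile scaling gave 4 lower in air each and 5 and 6 higher in smoke, and quantile scaling 212 interaction genes. No filter gave 6 members in male smoke. For this fit, the insert set as a term and the replicate block, counts over all genes are not given here. Their member counts therefore stand without a background. The insert set (1 to 3 or 4 to 6) as a term gave 17 in male smoke, 1 in the interaction, 2 higher in air and 17 in smoke. DESeq2 gave 506 interaction genes, 1 interaction member, and 2 members higher in air and 20 in smoke. For DESeq2, the other scalings and the pseudocount of 5, counts over all genes between the sexes are not given here. The same holds in air for the fit of only the groups compared. These member counts too stand without a background. Same-numbered smoke and air inserts had correlated deviations of 0.115 to 0.367 in 5 of 6 female pairs and -0.206 in that of insert 1, and of -0.242 to 0.124 in male cells. Pairing was taken to need a correlation over 0.1 in every pair, a cutoff chosen here, so the inserts were not treated as paired. The female pair below it includes female air insert 1, a length-trend library. In all, 2 female inserts and 1 male insert correlated best with their own number. Whether same-numbered inserts are paired cannot be told from these values. The replicate block gave 32, 14 and 1 members. Leaving out 1 library at a time gave 4149 to 6243, 2110 to 4596, 75 to 431, 4685 to 6067 and 3901 to 5919 genes, 31 to 37, 6 to 22 and 0 to 1 members, and 0 to 2 higher and 1 to 3 lower in air and 3 to 20 higher in smoke. Signs turned in female smoke against air with inserts 1 to 3 alone for Orc6 (-0.25), Gins1 (-0.076), Gins4 (-0.29), Rfc2 (-0.58), Rfc3 (-0.059) and Ccne2 (-0.46), and there without female air insert 1 for Rfc2 (-0.017) and Ccne2 (-0.028). Rfc2 also turned under total scaling (-0.001), edgeR (-0.12), DESeq2 (-0.096) and on leaving out 1 of 7 libraries, the values over all left-out libraries running from -0.14 to 0.32. The cause of these changes was not tested. The lowest member count in any library with recovered reads was 9 reads, so precision for Ccne2 is limited by depth.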
